A study of Mus musculus with 18 samples.

Results

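The response to IFNγ that remained in AT3 cells under A-485 was measured in 6 of the 18 libraries of the series, 3 of cells given A-485 and IFNγ (A-485+IFNγ) and 3 of cells given A-485 without IFNγ (A-485). They were chosen by their labels alone, and none of their values entered the choice. AT3 is an established mouse mammary carcinoma line, and all libraries came from this 1 line. Both groups received A-485 at 1000 nM for 1 h, then recombinant mouse IFNγ (1 ng/mL) or its vehicle for a further 2 h, so that the inhibitor was present for 3 h on both sides and only IFNγ differed. The other 12 libraries came from cells given DMSO or A-241 (250 nM), another inhibitor of P300/CBP, each without and with IFNγ on the same schedule. They are used below only for the size of the response without inhibitor and under A-241. The labels describe biological triplicates and the study's methods technical ones, so the spread between libraries may be technical.

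IFNγ binds a receptor whose JAK kinases activate STAT transcription factors, and these bind GAS elements (gamma-activated sequences) at promoters such as that of Irf1. IRF1, the protein made from that gene, then binds paired GAAA motifs at a second tier of genes, among them the guanylate-binding proteins, the immunity-related GTPases and the genes that load peptides on MHC class I. P300 and CBP are acetyltransferases that acetylate histone H3 at lysine 27 near active promoters and enhancers, and A-485 blocks their catalytic domain.

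Depth in the 6 libraries was between 4280273 and 5450793 counts, and between 3417167 and 7856830 in all 18. Two-sided tests used edgeR's quasi-likelihood method on the counts of 11964 genes, with 1 estimate of the spread from all 18 libraries. Genes with an adjusted p under 0.01 are described as raised or lowered. The ± after a log2 fold change, or a stated standard error, is approximate. It is the size of the log2 fold change divided by the square root of the test's F statistic. It therefore restates the test and is rough for genes near 0 counts in a group. The 6 libraries lay close to the means of their conditions (root mean square deviation 0.226 to 0.301 on the log2 scale), whereas DMSO replicate 3 (0.731) and IFNγ replicate 2 (0.755) stood apart. The share of counts on Gm42418, which lies in a ribosomal RNA repeat, was 9.56% to 16.2% with A-485 and 7.38% to 9.45% with A-485+IFNγ, and that of mitochondrial genes was 1.09% to 1.51% and 1.71% to 2.09%. Neither pair of ranges overlapped, and the part of these shifts in the results was not tested. Of 7 epithelial markers, 5 were detected at more than trace level (summed 842 to 938 CPM, counts scaled by library size, with A-485 and 785 to 889 with A-485+IFNγ), with Krt19 at 0 and Cldn4 at 0 or 1 count. Leukocyte markers summed to 13.6 to 42.4 CPM with A-485 and 4.25 to 20.4 with A-485+IFNγ, with Adgre1 at 0 in all libraries, and endothelial and fibroblast markers each to at most 3.04 CPM. Ptprc, the pan-leukocyte marker, had 37, 1 and 73 counts with A-485 and 21, 2 and 7 with A-485+IFNγ.

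With A-485 present on both sides, IFNγ raised 89 genes (0.744% of those tested) and lowered 7 (0.0585%). The median log2 fold change of the raised genes was 2.00, or 1.93 with the 12 genes given only as a lower bound set to that bound, while the median over all genes tested was -0.01. Among the raised genes 85 had a log2 fold change over 1, and all 89 had their 3 A-485+IFNγ libraries above their 3 A-485 libraries. The 7 lowered genes were likewise separated. Over all genes tested, the libraries were separated upwards for 1135 genes (9.49%) and downwards for 1017 (8.5%), so separation of 3 libraries from 3 was common and was not by itself a call. With DMSO replicate 3 and IFNγ replicate 2 left out, 170 genes were raised and 33 lowered, and the 6 libraries fitted alone gave 154 and 30. Without A-485 replicate 2 there were 53 raised genes, without A-485 replicate 1 there were 59, and 3 to 5 genes were lowered with any 1 of the 6 left out. In gene lists described below, 3 of 3 CXCR3 ligands, 10 of 12 immunity-related GTPases and 11 of 27 antiviral genes were raised, as was Irf1. No call was made among 6 tested genes of MHC class I and its activator, 7 NF-κB genes or 8 constitutive proteasome subunits. The same held for 8 acetyltransferase and bromodomain genes and for MHC class II, where 1 of 7 members was tested. At 0.744% raised over all genes tested, 0 calls in lists this short do not set them apart.

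**Figure D1:**
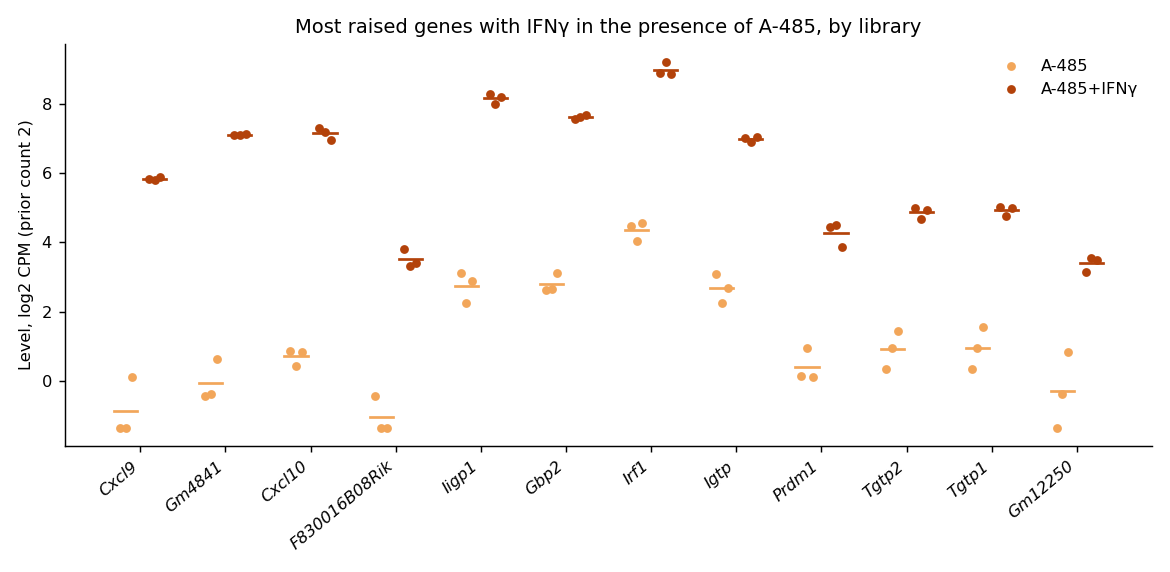
Levels of the 12 most raised genes among those with a mean of at least 50 counts in the higher group (log2 CPM with a prior count of 2, vertical axis) in each library, with A-485 in light orange, A-485+IFNγ in dark orange and a bar at the mean of 3 libraries. Every A-485+IFNγ library lies above every A-485 library, and the points of Irf1 lie at 16.0 to 23.2 CPM without and 465 to 589 CPM with IFNγ.

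The transcription factors came first in the pathway. Irf1 had 124, 84 and 100 counts with A-485 and 2477, 2890 and 2446 with A-485+IFNγ, and its lowest library with IFNγ held far more than its highest without. Its fitted change was large (log2 fold change 4.64 ± 0.31, edgeR adjusted p = 1.09e-07). Stat2, a signal transducer best known from the type I interferon response, rose from 7.94, 7.63 and 5.34 CPM with A-485 to 24.7, 22.8 and 20.3 CPM with A-485+IFNγ (log2 fold change 1.68 ± 0.22, edgeR adjusted p = 0.000318). Stat3 did not pass the threshold (log2 fold change 1.02 ± 0.49, edgeR adjusted p = 0.872), with 169, 129 and 210 counts with A-485 and 358, 379 and 333 with A-485+IFNγ, and it did so when the 6 libraries were fitted alone (adjusted p = 0.00584, edgeR). The receptor genes Ifngr1 (log2 fold change 0.06) and Ifngr2 (-0.02) and the kinases Jak1 (0.17) and Jak2 (0.29) had overlapping groups. Of the 7 tested IRF genes only Irf1 was raised in the fit of all libraries, with a list median of 0.89. Irf2, Irf7 and Irf8 passed the threshold when the 6 libraries were fitted alone (adjusted p = 0.00506, 0.00326 and 0.00326, edgeR). Irf7, an amplifier of interferon production (0.89, adjusted p = 0.139, edgeR), and Irf2, an antagonist of IRF1 (0.89, adjusted p = 0.206, edgeR), had separated libraries without a call. Irf8, best known from myeloid cells, had 13, 1 and 17 counts with A-485 and 59, 52 and 52 with A-485+IFNγ (log2 fold change 2.33 ± 0.53, edgeR adjusted p = 0.0389). Its 2 higher A-485 libraries, replicates 1 and 3, were also those with the most Ptprc and Lyz2. The leukocyte marker Itgam went the other way, with 5, 19 and 3 counts in the A-485 libraries. With A-485+IFNγ, Ptprc had 21, 2 and 7 counts beside the similar Irf8 counts. The part of the leukocyte markers in the value of Irf8 was not tested.

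Negative feedback was measurable but did not pass the threshold in the fit of all libraries. Socs1, which blocks JAK kinase activity, had 6, 0 and 2 counts with A-485 and 99, 131 and 80 with A-485+IFNγ, so that the groups were far apart. Its log2 fold change was 5.21 (standard error 1.05, adjusted p = 0.0161, edgeR), and its adjusted p was 1.38e-06 when the 6 libraries were fitted alone. The spread of Socs1 in the shared estimate includes IFNγ replicate 2, where it had 4 counts against 511 and 320 in the other IFNγ libraries. Socs3, another inhibitor of cytokine receptors, had 5, 1 and 2 counts with A-485 and 37, 37 and 19 with A-485+IFNγ (log2 fold change 3.47, adjusted p = 0.116, edgeR, and 0.000333 with the 6 libraries alone). Usp18, which restrains the type I receptor, had a log2 fold change of 0.92 (adjusted p = 0.15, edgeR). Of the 8 feedback genes tested 0 were called, 5 had libraries separated upwards (9.49% over all genes tested), and the median was 0.66.

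The promoters of 4 of the most raised genes are shown to set the sequence elements of the pathway beside these increases. They are the 250 bases before the start of each gene in RefSeq (GRCm38.p6), written 5′ to 3′ on the strand of the gene. Capitals mark the GAS letters (TTC, any 3 bases, then GAA) and GAAA repeated after any 2 bases, read on both strands. Irf1 (chr11:53769764-53770013, plus strand) holds a GAS, Cxcl10 (chr5:92348890-92349139, minus strand) a paired GAAA motif, Igtp (chr11:58199306-58199555, plus strand) both, and Cxcl9 (chr5:92328080-92328329, minus strand), which had the largest lower bound of fold change, holds neither in this window.
Irf1: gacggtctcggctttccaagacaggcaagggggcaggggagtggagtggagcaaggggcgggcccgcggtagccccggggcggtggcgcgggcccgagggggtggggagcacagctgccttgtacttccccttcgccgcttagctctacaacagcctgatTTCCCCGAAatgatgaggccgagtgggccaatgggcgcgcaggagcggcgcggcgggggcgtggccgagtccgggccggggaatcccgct
Cxcl10: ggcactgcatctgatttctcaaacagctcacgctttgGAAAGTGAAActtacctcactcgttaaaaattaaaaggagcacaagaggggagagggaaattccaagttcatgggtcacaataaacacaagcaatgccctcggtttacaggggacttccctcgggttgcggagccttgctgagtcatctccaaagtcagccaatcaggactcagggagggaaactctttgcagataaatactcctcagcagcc
Igtp: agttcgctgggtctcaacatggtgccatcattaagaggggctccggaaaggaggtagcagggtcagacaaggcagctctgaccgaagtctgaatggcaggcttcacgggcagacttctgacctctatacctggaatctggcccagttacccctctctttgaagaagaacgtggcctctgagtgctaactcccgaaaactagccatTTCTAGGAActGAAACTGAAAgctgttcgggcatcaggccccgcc
Cxcl9: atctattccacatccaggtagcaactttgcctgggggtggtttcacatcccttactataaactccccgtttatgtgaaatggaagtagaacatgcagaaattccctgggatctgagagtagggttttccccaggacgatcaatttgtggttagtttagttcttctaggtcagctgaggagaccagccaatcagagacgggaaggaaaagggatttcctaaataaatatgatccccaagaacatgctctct
Positions are counted from the start of the gene, where -1 is the last base shown. The GAS of Irf1 begins at -90 and that of Igtp at -45. The paired motif begins at -213 in Cxcl10 and at -34 in Igtp, next to its GAS.

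Of the 89 raised genes, 68 had promoter windows of 300 bases (250 before to 50 after the start). A paired GAAA motif was present for 27 of the 68 (39.7%), against 3.73% of the 8283 tested genes with a window and 3.99% of all 27025 genes in the table. GAS letters were present for 18 (26.5%), against 8.16% and 9.55%, and either motif for 37 (54.4%), against 11.4% and 12.9%. None of the 6 lowered genes with a window (all but 1 of the 7) held either motif. Among the raised genes that were not called for IFNγ alone, 2 of 11 held a paired GAAA motif and 3 of 11 GAS letters. Among the genes raised by IFNγ alone and not called with A-485, 18 of 53 held a paired GAAA motif, 7 (13.2%) GAS letters and 22 (41.5%) either. Genes with several starts were counted once if any window matched. These are counts of letters in short windows, without a test, and they say nothing of sites farther away.

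Chemokines that bind CXCR3, the receptor of activated T cells, were all raised. Cxcl9 had 0, 0 and 3 counts with A-485 and 295, 274 and 310 with A-485+IFNγ and was at least 81.8-fold higher (adjusted p = 1.23e-07, edgeR). Cxcl10 had 8, 5 and 6 counts with A-485 and 817, 719 and 650 with A-485+IFNγ, and every library lay above the floor of 3 counts (log2 fold change 6.80 ± 0.46, edgeR adjusted p = 1.23e-07). Cxcl11, which the annotation lists as a polymorphic pseudogene, had 0 counts in each A-485 library and 30, 30 and 37 with A-485+IFNγ. A count of 0 in these libraries allows up to 0.530 to 0.697 CPM, and Cxcl11 was at least 9.03-fold higher (adjusted p = 0.000721, edgeR). Cxcl9 and Cxcl10 lie beside each other on chromosome 5 (from 92321347 to 92328079 and from 92346638 to 92348889), and exons of Cxcl10 overlap those of Art3. None of the 8 other chemokines tested was called. Cx3cl1, a membrane-bound chemokine, came nearest, with 8, 7 and 7 counts with A-485 and 118, 145 and 112 with A-485+IFNγ and no overlap (log2 fold change 4.05 ± 0.85, edgeR adjusted p = 0.022), and its adjusted p was 5.01e-08 with the 6 libraries alone. Cxcl2, a neutrophil attractant, was separated in the other direction, from 4.77, 4.96 and 2.79 CPM with A-485 to 1.91, 2.24 and 1.14 CPM with A-485+IFNγ, without a call (log2 fold change -1.25, adjusted p = 0.609, edgeR).

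The immunity-related GTPases, which attack the vacuoles of intracellular pathogens, were nearly all raised. Of 12 tested, 10 passed the threshold, and all 12 had libraries separated upwards (9.49% over all genes tested). The median log2 fold change was 4.20 (4.10 with bounded genes at their bound). The 2 without a call were Gm12185 (2, 2 and 0 counts with A-485 and 6, 10 and 12 with A-485+IFNγ) and 9930111J21Rik2 (8, 13 and 12 counts with A-485 and 27, 19 and 41 with A-485+IFNγ). Gm4841 had 2, 2 and 5 counts with A-485 and 714, 671 and 737 with A-485+IFNγ (log2 fold change 7.79 ± 0.48, edgeR adjusted p = 4.79e-08). Iigp1 had 47, 23 and 30 counts with A-485 and 1620, 1246 and 1555 with A-485+IFNγ (log2 fold change 5.44 ± 0.31, edgeR adjusted p = 2.67e-08). F830016B08Rik had 2, 0 and 0 counts with A-485 and 71, 47 and 54 with A-485+IFNγ and was at least 16.0-fold higher (adjusted p = 2.7e-05, edgeR). These 3 genes lie close together on chromosome 18, from 60268305 to 60273272, from 60376027 to 60392634 and from 60293380 to 60303016. Igtp, also known as Irgm3, had 46, 23 and 26 counts with A-485 and 667, 581 and 696 with A-485+IFNγ (log2 fold change 4.34 ± 0.21, edgeR adjusted p = 3.91e-09), and Irgm2, whose exons overlap those of Igtp so that reads can be counted for both, rose from 4.24, 2.48 and 4.18 CPM with A-485 to 36.4, 39.5 and 25.1 CPM with A-485+IFNγ (log2 fold change 3.21 ± 0.51, edgeR adjusted p = 0.00198). Irgm1, a regulator of the family, rose from 5.12, 4.58 and 3.72 CPM with A-485 to 23.9, 35.8 and 34.8 CPM with A-485+IFNγ (log2 fold change 2.80 ± 0.26, edgeR adjusted p = 9.8e-06). Tgtp1 (5, 8 and 11 counts with A-485 and 168, 132 and 165 with A-485+IFNγ) and Tgtp2 (5, 8 and 10 counts with A-485 and 164, 124 and 159 with A-485+IFNγ) had nearly the same counts in each library. They are near-identical copies on chromosome 11, and how reads were divided between them is uncertain, as is their separate fold change (4.21 and 4.22). Gm12250, annotated as a processed pseudogene on chromosome 11 from 58187739 to 58189012, had 0, 2 and 6 counts with A-485 and 44, 56 and 57 with A-485+IFNγ (log2 fold change 4.19 ± 0.56, edgeR adjusted p = 0.000659). The calls of Irgm2 and Gm12250 depended on single libraries. Irgm2 lost its call without A-485 replicate 1, 2 or 3 (adjusted p = 0.0149, 0.0285 and 0.0156, edgeR), and Gm12250 without A-485 replicate 2 (adjusted p = 0.0102, edgeR), and the log2 fold change of Gm12250 lay between 3.55 and 5.61 with the 6 libraries left out in turn.

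Guanylate-binding proteins, GTPases that coat pathogens and their vacuoles, were split. Gbp2 had 33, 31 and 36 counts with A-485 and 987, 957 and 1076 with A-485+IFNγ, with tight groups (log2 fold change 4.87 ± 0.23, edgeR adjusted p = 3.43e-09). Gbp7 rose from 4.59, 5.34 and 7.44 CPM with A-485 to 26.4, 24.2 and 35.7 CPM with A-485+IFNγ (log2 fold change 2.32 ± 0.26, edgeR adjusted p = 5.6e-05). Gbp3, by contrast, had 48, 54 and 37 counts with A-485 and 79, 75 and 97 with A-485+IFNγ, separated but without a call (log2 fold change 0.83 ± 0.22, edgeR adjusted p = 0.107), while its log2 fold change with IFNγ alone was 3.03. Gbp4, which shares exon bases with Gbp8 and Gbp9, had 1, 0 and 9 counts with A-485 and 8, 7 and 7 with A-485+IFNγ, and its groups overlapped (log2 fold change 1.04). In total 2 of the 5 tested members were raised with A-485, against all 5 with IFNγ alone, and the list medians were 2.32 and 6.08, or 1.32 and 3.50 with genes at or under the floor set to their bound. Gm43302, a predicted gene of the same chromosome 5 region as Gbp4, from 105214907 to 105293695, had 6, 2 and 11 counts with A-485 and 111, 95 and 101 with A-485+IFNγ (log2 fold change 3.94 ± 0.48, edgeR adjusted p = 0.000153).

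**Figure D2:**
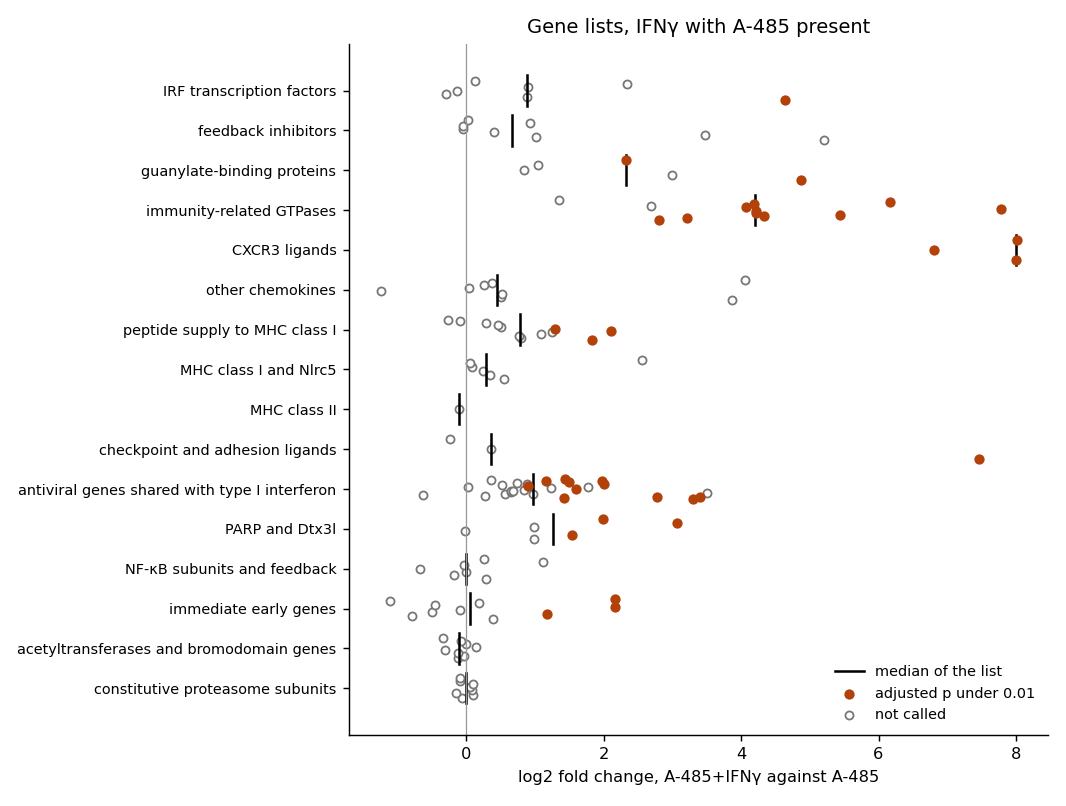
Fitted log2 fold change of A-485+IFNγ against A-485 (horizontal axis) for each tested member of the gene lists named on the vertical axis, filled where the adjusted p was under 0.01 and open where it was not, with a bar at the median of the list. The CXCR3 ligands (median 7.99, or 6.35 with bounded genes at their bound) and immunity-related GTPases (4.20) lie far to the right, and the constitutive proteasome subunits lie around 0.

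Genes of antigen presentation responded in part. Tap1, a subunit of the peptide transporter, had 71, 75 and 65 counts with A-485 and 212, 249 and 305 with A-485+IFNγ (log2 fold change 1.83 ± 0.25, edgeR adjusted p = 0.000429). Psmb9 (13, 6 and 9 counts with A-485 and 45, 40 and 38 with A-485+IFNγ, log2 fold change 2.10, adjusted p = 0.00403, edgeR) and Psmb10 (79, 84 and 66 counts with A-485 and 204, 167 and 201 with A-485+IFNγ, 1.30, adjusted p = 0.00532, edgeR), catalytic subunits of the immunoproteasome, were also raised. Psmb9 shares exon bases with Tap1. Both proteasome calls were lost with any 1 of the 6 libraries left out, with adjusted p values up to 0.0453 and 0.0431 (edgeR, each without an A-485 library, replicate 2 and replicate 1). Tapbpl, a peptide editor, had 93, 77 and 68 counts with A-485 and 152, 147 and 216 with A-485+IFNγ without a call (log2 fold change 1.09 ± 0.22, edgeR adjusted p = 0.0161), and Tap2, the other transporter subunit, had 7, 8 and 1 counts with A-485 and 6, 8 and 14 with A-485+IFNγ with overlapping groups. The list had 3 raised of 12 tested and a median of 0.78. Among MHC class I genes and their activator, 0 of 6 were called. Nlrc5, the activator, had 1, 1 and 3 counts with A-485 and 9, 9 and 14 with A-485+IFNγ and was at least 2.97-fold higher, without a call (adjusted p = 0.0444, edgeR). B2m, the light chain, had 394, 338 and 245 counts with A-485 and 461, 445 and 530 with A-485+IFNγ, separated by a small margin (log2 fold change 0.55 ± 0.20, edgeR adjusted p = 0.486). H2-K1, a heavy chain, changed by 0.34 (standard error 0.34), and H2-D1 by 0.23 (standard error 0.39). Ciita, the activator of MHC class II, had 0 counts in each A-485+IFNγ library and 1, 0 and 0 with A-485, too few to be tested, against 8, 7 and 30 with IFNγ alone. H2-Ab1 had 2, 1 and 1 counts with A-485+IFNγ. Constitutive proteasome subunits had 0 of 8 called and a median of 0.00.

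Cd274, which encodes PD-L1, the ligand of the T cell checkpoint receptor PD-1, was detected only with IFNγ among the 6 libraries. It had 0 counts in each A-485 library and 26, 22 and 18 with A-485+IFNγ, and its counts were low in all of them. It was at least 6.16-fold higher (adjusted p = 2.35e-05, edgeR), and it was called with each of the 6 libraries left out in turn. Of 3 tested checkpoint and adhesion ligands, Cd274 was the 1 raised. Cd47, a signal that restrains phagocytes, changed by 0.36 (adjusted p = 1.00, edgeR) with separated libraries. Icam1, an adhesion ligand, had 4, 0 and 7 counts with A-485+IFNγ and 0 in each A-485 library, too few to be tested. Tnfsf10, the death ligand TRAIL, rose from 2.65, 2.67 and 2.79 CPM with A-485 to 19.9, 19.6 and 26.2 CPM with A-485+IFNγ (log2 fold change 3.01 ± 0.37, edgeR adjusted p = 0.000169).

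Genes of antiviral defence that type I interferon also induces formed the longest list, with 11 of 27 tested raised, 0 lowered and a median of 0.97. Of the 27, 23 were separated upwards, against 9.49% of all genes tested. Ifit1, which binds foreign RNA ends, had 43, 27 and 27 counts with A-485 and 290, 322 and 350 with A-485+IFNγ (log2 fold change 3.29 ± 0.20, edgeR adjusted p = 4.79e-08). Ifit3 had 28, 7 and 16 counts with A-485 and 150, 175 and 224 with A-485+IFNγ (log2 fold change 3.41 ± 0.39, edgeR adjusted p = 8.04e-05), and its paralog Ifit3b had 24, 11 and 6 counts with A-485 and 62, 104 and 113 with A-485+IFNγ (log2 fold change 2.77 ± 0.38, edgeR adjusted p = 0.000464), where similar sequence leaves the division of reads uncertain. Trim21, an antibody receptor in the cytosol, rose from 3.71, 2.67 and 2.79 CPM with A-485 to 11.9, 12.8 and 12.3 CPM with A-485+IFNγ (log2 fold change 2.00 ± 0.27, edgeR adjusted p = 0.000422). Oasl2 had a log2 fold change of 1.60, Samhd1, a dNTP hydrolase, of 1.49, and Rtp4 of 1.15. Isg15, a ubiquitin-like modifier, changed by 0.27 (standard error 0.37) with overlapping groups, from 175, 153 and 88.8 CPM with A-485 to 146, 173 and 184 CPM with A-485+IFNγ. Rsad2 (viperin) and Ifi47, an immunity-related GTPase that was counted in this list, lay just short of the threshold (adjusted p = 0.0106 and 0.0107, edgeR), with log2 fold changes of 1.77 and 3.51. Within the PARP list 3 of 6 were raised. Parp14 had 61, 66 and 38 counts with A-485 and 559, 339 and 501 with A-485+IFNγ (log2 fold change 3.07 ± 0.20, edgeR adjusted p = 9.31e-08), and Dtx3l, a ubiquitin ligase whose exons overlap those of its partner Parp9, had 318, 257 and 236 counts with A-485 and 935, 1043 and 1273 with A-485+IFNγ (log2 fold change 1.98 ± 0.24, edgeR adjusted p = 0.00012). Parp10 rose from 21.5, 18.3 and 25.6 CPM with A-485 to 62.8, 57.8 and 68.6 CPM with A-485+IFNγ (log2 fold change 1.53 ± 0.22, edgeR adjusted p = 0.000649).

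Several transcription factors outside the IRF family were raised. Prdm1, the repressor BLIMP1, had 4, 8 and 3 counts with A-485 and 111, 109 and 74 with A-485+IFNγ (log2 fold change 4.25 ± 0.60, edgeR adjusted p = 0.000585). Arid5a, an RNA-binding protein that stabilizes cytokine mRNA, had 43, 41 and 48 counts with A-485 and 276, 228 and 291 with A-485+IFNγ (log2 fold change 2.55 ± 0.26, edgeR adjusted p = 2.51e-05). Among 10 immediate early genes 3 were raised, namely Jun (401, 324 and 262 counts with A-485 and 786, 663 and 784 with A-485+IFNγ, log2 fold change 1.17), Atf3 (2.17) and Csrnp1 (2.16), while Egr1 (-0.09) and Fos (0.39) had overlapping groups and the list median was 0.05. Atf3 lost its call without A-485 replicate 2 or 3 (adjusted p = 0.0188 and 0.0148, edgeR) and Csrnp1 without A-485 replicate 1 (adjusted p = 0.0115, edgeR). Jun shares exon bases with its antisense gene Junos. Of 7 NF-κB genes 0 were called. Nfkbiz, a nuclear cofactor, was highest (log2 fold change 1.12, adjusted p = 0.14, edgeR), and Relb, a subunit, was lowest (-0.67, adjusted p = 0.377, edgeR). With the 6 libraries fitted alone Nfkbiz passed the threshold (adjusted p = 0.00257, edgeR). The genes of the inhibited enzymes, Ep300 (-0.12) and Crebbp (-0.04), had overlapping groups.

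Set against IFNγ without inhibitor, where 144 genes were raised (1.2%) and 12 lowered (0.1%), 75 genes were raised in both comparisons. They were 84.3% of those raised with A-485 and 52.1% of those raised by IFNγ alone, and the comparisons share no library. With DMSO replicate 3 and IFNγ replicate 2 left out, 114 genes were raised in both, and without A-485 replicate 2 there were 50. Of the 89 genes raised with A-485, 88 had a positive log2 fold change with IFNγ alone, and the sign differed for mt-Nd6. The median log2 fold change of the 89 was 2.00 with A-485 and 2.38 with IFNγ alone (1.93 and 2.26 with bounded genes at their bound), and 57 of them had the smaller value with A-485. These genes were chosen by their values with A-485. For the 144 genes chosen by their values with IFNγ alone, the medians were 1.55 with A-485 and 2.44 without (1.43 and 2.34 with bounds). Of these, 143 had a positive log2 fold change with A-485, and 126 had the smaller value there. Their choice by IFNγ alone favours a larger value without inhibitor, so 126 of 144 does not by itself measure a loss. Of the 69 among the 144 that were not called with A-485, 57 still had separated libraries in the same direction (9.49% over all genes tested). Over the 69 the median log2 fold change was 0.96 with A-485 and 2.21 without inhibitor (0.95 and 2.14 with bounds). The 69 were chosen by a call with IFNγ alone and no call with A-485. That choice itself favours the lower median with A-485, so these medians do not measure a loss.

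The difference between both responses was tested as an interaction. Here and below, a smaller response is a lower signed log2 fold change, so a deeper fall also counts as smaller. In edgeR, 0 genes were called for a smaller and 0 for a larger response under A-485 (0% each). Those at an unadjusted p under 0.05 numbered 242 and 257. Unchanged genes also pass that threshold, so these numbers do not show differences. No detection rate is given for this test, so 0 calls do not show that the responses were equal. limma-voom likewise called 0 and 0, and DESeq2 called 4 smaller (Gbp3, Igtp and Irf8 among them) and 3 larger (mt-Nd6, Nupr1 and Wnt7b). Wnt7b and mt-Nd6 were singled out on seeing their values, as they fall outside the naming rule. Gbp3 came near the threshold in edgeR, where its response was -2.19 ± 0.31 apart on the log2 scale (edgeR adjusted p = 0.0257). Without inhibitor Gbp3 went from 6.11, 7.11 and 7.95 to 50.5, 77.8 and 44.1 CPM, and with A-485 from 8.47, 10.3 and 8.60 to 15.1, 15.3 and 18.4 CPM.

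Among genes raised in both comparisons, the 5 with the largest shortfall under A-485 by fitted value were Gm12250 (log2 fold change 4.19 against 11.14), Gm43302 (3.94 against 7.31), Tgtp1 (4.21 against 6.89), Tgtp2 (4.22 against 6.82) and Irgm2 (3.21 against 5.38). The value of Gm12250 with IFNγ alone rests on DMSO libraries at 0 counts and was at least 53.6-fold, so its place in this order is not established. Gm12250 reached 8.42, 11.4 and 10.8 CPM with A-485+IFNγ and 45.6, 74.5 and 46.5 with IFNγ alone. At the other end, Arid5a (2.55 against 1.31), Prdm1 (4.25 against 3.05), Tnfsf10 (3.01 against 2.40), Tgm2 (1.83 against 1.22) and Tlr3 (1.76 against 1.23) had the larger value under A-485. Tgm2 is a transglutaminase and Tlr3 a sensor of double-stranded RNA. For Tlr3 the levels reached with IFNγ overlapped, at 45.5, 45.2 and 44.8 CPM with A-485+IFNγ and 51.1, 41.1 and 47.2 with IFNγ alone, while the starting levels were 11.3, 11.8 and 17.0 with A-485 and 24.4, 19.6 and 15.2 with DMSO. Tgm2 started at 4.06, 6.49 and 8.13 CPM with A-485 and 22.8, 17.7 and 19.4 with DMSO, and reached 20.9 to 23.9 CPM with A-485+IFNγ and 39.6 to 53.9 with IFNγ alone. None of these 10 differences was called (the lowest adjusted p was 0.35, for Gm12250, edgeR), but with 2 surrogate variables added those of Tgtp1, Tgtp2 and Irgm2 were called as smaller under A-485. The value of Prdm1 with IFNγ alone includes IFNγ replicate 2, at 20 counts against 201 and 116 in the others.

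**Figure D3:**
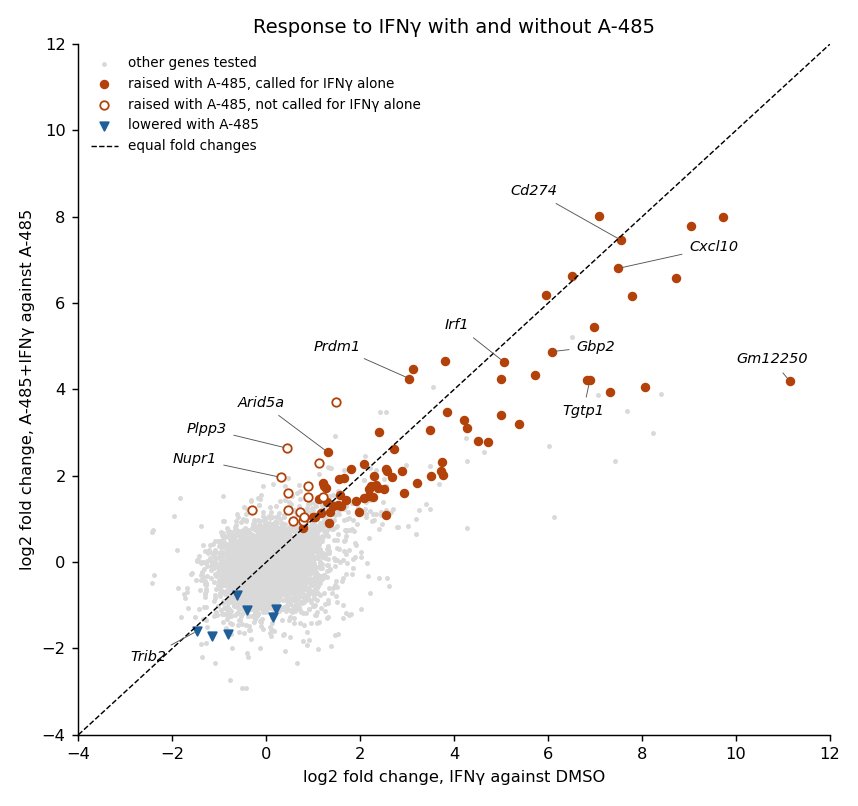
Fitted log2 fold change of A-485+IFNγ against A-485 (vertical axis) and of IFNγ against DMSO (horizontal axis) for all 11964 genes tested, with the genes raised with A-485 in dark orange (open where IFNγ alone was not called), the lowered genes as blue triangles and a dashed line at equal values. Of the 89 raised genes 57 lie below the line by fitted value, the horizontal place of Gm12250 rests on DMSO libraries at 0 counts, and Plpp3 and Nupr1 lie above it near 0 on the horizontal axis.

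The remaining 14 raised genes were not called for IFNγ alone. The 5 of smallest p among those with at least 50 counts were Nupr1, Plpp3, Pik3r1, Pde4b and Ncoa7. Nupr1, a stress-induced chromatin protein, had 44, 36 and 21 counts with A-485 and 133, 114 and 148 with A-485+IFNγ (log2 fold change 1.96 ± 0.21, edgeR adjusted p = 4.94e-05), against a log2 fold change of 0.31 with IFNγ alone. In CPM it was at 15.4, 17.8 and 21.4 with DMSO, 22.6, 24.1 and 20.8 with IFNγ, 7.77, 6.87 and 4.88 with A-485 and 25.4, 23.2 and 28.1 with A-485+IFNγ, so that the A-485 libraries were the low ones. Plpp3, a lipid phosphatase, had 10, 10 and 21 counts with A-485 and 74, 85 and 109 with A-485+IFNγ (log2 fold change 2.64 ± 0.36, edgeR adjusted p = 0.000468), against 0.43 with IFNγ alone. Its CPM was 13.9, 7.26 and 5.87 with DMSO and 13.3, 10.1 and 13.3 with IFNγ, and again the A-485 libraries (1.76, 1.91 and 4.88) lay below both. Pik3r1, the regulatory subunit of PI3 kinase, had 431, 275 and 356 counts with A-485 and 1061, 940 and 1100 with A-485+IFNγ (log2 fold change 1.51 ± 0.21, edgeR adjusted p = 0.000542, and 0.89 with IFNγ alone, adjusted p = 0.0337). Pde4b, which degrades cAMP, rose from 6.18, 4.39 and 3.95 CPM with A-485 to 14.0, 16.1 and 14.4 CPM with A-485+IFNγ (log2 fold change 1.60 ± 0.23, edgeR adjusted p = 0.000735), and Ncoa7 from 58.4, 45.6 and 48.3 CPM with A-485 to 96.8, 91.8 and 107 CPM with A-485+IFNγ (log2 fold change 0.96 ± 0.15, edgeR adjusted p = 0.00214). Pde4b and Ncoa7 lost their calls when A-485 replicate 2 (adjusted p = 0.0128 and 0.0241, edgeR) or A-485 replicate 3 (0.0102 and 0.0161) was left out, and Ncoa7 also without A-485+IFNγ replicate 3 (0.0162). The differences from the response without inhibitor were 1.65 for Nupr1 (standard error 0.29, adjusted p = 0.136, edgeR) and 2.21 for Plpp3 (standard error 0.48, adjusted p = 0.275, edgeR), neither called here, although that of Nupr1 was called with DESeq2 and with 2 surrogate variables. mt-Nd6, a mitochondrial gene on the strand opposite to mt-Nd5, was also in this group (232, 154 and 184 counts with A-485 and 474, 368 and 496 with A-485+IFNγ, log2 fold change 1.20). The share of all mitochondrial counts was higher in the same libraries, and its part in this value was not tested. Its call was lost without A-485 replicate 1 or 2 (adjusted p = 0.0156 and 0.0331, edgeR) or A-485+IFNγ replicate 1 or 3 (0.0192 and 0.0236).

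**Figure D4:**
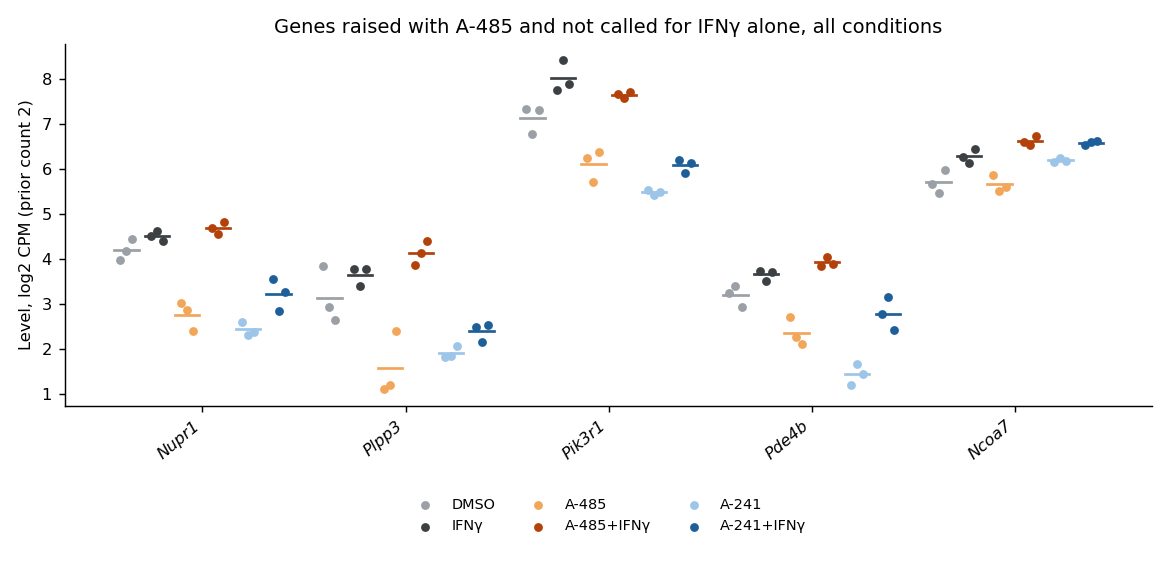
Levels (log2 CPM with a prior count of 2, vertical axis) of 5 genes raised with A-485 and not called for IFNγ alone, in each library of the 6 conditions, with a bar at the mean of 3 libraries. For Nupr1, Plpp3, Pik3r1 and Pde4b the A-485 libraries lie below the DMSO libraries and the A-485+IFNγ libraries lie above them.

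The 7 genes lowered by IFNγ under A-485 all had a mean of at least 50 counts in the A-485 libraries, and 6 of them are described here. Kcnn4, a calcium-activated potassium channel, had 207, 196 and 204 counts with A-485 and 75, 62 and 52 with A-485+IFNγ (log2 fold change -1.72 ± 0.17, edgeR adjusted p = 2.12e-05). Trib2, a pseudokinase, had 416, 314 and 397 counts with A-485 and 125, 114 and 145 with A-485+IFNγ (log2 fold change -1.59 ± 0.21, edgeR adjusted p = 0.000399). Ankrd1, a target gene of YAP, fell from 97.6, 97.9 and 63.7 CPM with A-485 to 39.0, 33.8 and 35.0 CPM with A-485+IFNγ (log2 fold change -1.27 ± 0.23, edgeR adjusted p = 0.0066). Erf, an ETS-family repressor, had 770, 797 and 448 counts with A-485 and 272, 301 and 359 with A-485+IFNγ (log2 fold change -1.11 ± 0.15, edgeR adjusted p = 0.00057). Cebpb, a bZIP transcription factor whose exons overlap those of Tmem189, had 316, 301 and 247 counts with A-485 and 140, 122 and 154 with A-485+IFNγ (log2 fold change -1.08 ± 0.20, edgeR adjusted p = 0.00649). Timp3, an inhibitor of metalloproteases, had 2385, 2100 and 1640 counts with A-485 and 1267, 1162 and 1183 with A-485+IFNγ (log2 fold change -0.77 ± 0.12, edgeR adjusted p = 0.00238). Kcnn4, Trib2 and Erf stayed past the threshold with each of the 6 libraries left out in turn. Cebpb lost its call with any of them (adjusted p up to 0.0599, without A-485+IFNγ replicate 2, edgeR). Ankrd1 and Timp3 each lost theirs with 5 of the 6, all but A-485 replicate 3 (adjusted p up to 0.0668 and 0.0208, edgeR).

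IFNγ alone also lowered 3 of the 7, Kcnn4 (log2 fold change -1.16), Trib2 (-1.46) and Timp3 (-0.62). For Trib2 the levels were 276, 194 and 249 CPM with DMSO, 70.1, 91.2 and 99.3 with IFNγ, 73.4, 59.9 and 92.2 with A-485 and 23.9, 23.2 and 27.5 with A-485+IFNγ. The libraries with either agent lay below DMSO and those with both lay lowest. Kcnn4 was ordered in the same way, at 97.0, 80.5 and 70.8, 38.1, 35.1 and 38.1, 36.5, 37.4 and 47.4 and 14.3, 12.6 and 9.88 CPM. Ankrd1 and Cebpb had log2 fold changes of 0.14 and 0.21 with IFNγ alone, and the differences of the A-485 values from that response were -1.41 (standard error 0.32, adjusted p = 0.326, edgeR) and -1.29 (standard error 0.27, adjusted p = 0.218, edgeR). Both differences were called with 2 surrogate variables, and that of Cebpb also without DMSO replicate 3 and IFNγ replicate 2. Cebpb had 26.8, 24.9 and 29.2 CPM in the A-485+IFNγ libraries, 55.8, 57.5 and 57.4 with A-485 alone and 97.5, 54.8 and 83.4 with IFNγ alone.

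**Figure D5:**
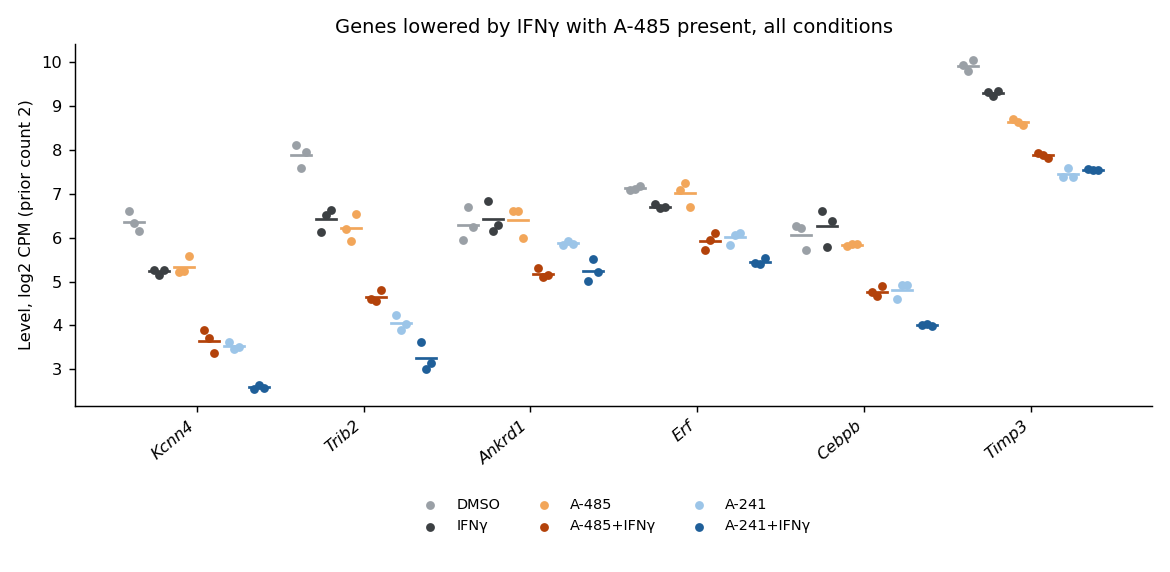
Levels (log2 CPM with a prior count of 2, vertical axis) of 6 of the 7 genes lowered by IFNγ with A-485 present, in each library of the 6 conditions, with a bar at the mean of 3 libraries. The A-485+IFNγ libraries lie below the A-485 libraries for all 6 genes, and below those of IFNγ alone as well.

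Under A-241, at 250 nM and so at another dose, IFNγ raised 23 genes (0.192%) and lowered 0 (0%). In edgeR, 182 falling genes had an unadjusted p under 0.05. Unchanged genes also pass that threshold, so this number does not show missed falls. All 23 were among the 89 raised with A-485 (25.8%), and no library is shared between these comparisons. All 89 genes raised with A-485 had a positive log2 fold change under A-241, with a median of 1.34 (1.26 with bounds). Irf1 had a log2 fold change of 4.10 under A-241 and 4.64 under A-485, Gbp2 of 4.55 and 4.87, and Cxcl10 of 6.02 and 6.80. Cxcl9 reached 1.96, 1.96 and 2.48 CPM with A-241+IFNγ and 56.5, 55.8 and 58.9 CPM with A-485+IFNγ. Igtp had 2.34 and 4.34, the difference nearest to the threshold (2.00, standard error 0.28, adjusted p = 0.0281, edgeR). In edgeR 0 genes were called for a larger and 0 for a smaller response under A-485 than under A-241 (0% each). Those at an unadjusted p under 0.05 numbered 179 and 99, which again do not show differences. limma-voom also called 0 and 0, and DESeq2 called Igtp as larger and Timp3 as smaller. Timp3 fell under A-485 (log2 fold change -0.77), so smaller here means a lower signed value and not a weaker fall. As the doses differ, these values are set side by side and do not compare the compounds.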

How the data were processed

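RNA of AT3 cells was sequenced in 18 libraries, 3 for each of 6 conditions. Per the labels and the study's methods they were made with QuantSeq, a kit that reads mRNA near its 3′ end. The authors deposited 1 table of raw read counts per gene (43629 Ensembl genes), and these counts were used unchanged. Per the labels and the submitters' processing notes, reads were demultiplexed with bcl2fastq 2.17.1.14, checked with FastQC 0.11.5, trimmed with cutadapt 1.7, aligned to mm10 with HISAT2 2.1.0 and counted with featureCounts, letting a read count for every gene it overlaps and with no strand setting, so overlapping and antisense genes share reads. The annotation release of the counting is not given in the sources used here. Symbols were matched for 42462 identifiers (97.3%).

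Counts were tested with edgeR 4.0.16 in R 4.3.3 (filterByExpr, TMM scaling, quasi-likelihood test, two-sided, Benjamini-Hochberg adjustment over all 11964 genes tested, call at an adjusted p under 0.01), with a mean for each condition and no covariate. The biological coefficient of variation was 0.263. CPM were scaled by TMM, log2 CPM used a prior count of 2, and a fold against a group at or under 3 counts per library was given as a lower bound at that floor, which covers counting error only. DESeq2 1.42.0, limma-voom (limma 3.58.1), sva 3.50.0 and other filters, scalings and sample sets were alternatives. Libraries of the same replicate number were not treated as pairs. No pairing was seen between A-485 and A-485+IFNγ (correlations of deviations 0.019, 0.012 and -0.034 for the 3 pairs). For DMSO with IFNγ the same-numbered values were 0.367, -0.804 and -0.695, and DMSO replicate 3 with IFNγ replicate 2 had 0.828. Those libraries also enter the shared estimate of the spread. Promoters and coordinates are those of GRCm38.

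Genes were named by rule, namely the 12 largest increases and up to 10 largest decreases among called genes with a mean of at least 50 counts and no overlap, members of the gene lists, the 5 largest differences each way between responses called in both comparisons, genes called for a difference in response (0 here), and the 5 of smallest p among those not called for IFNγ alone. The members and lists were chosen with earlier results of these data known. On simulated counts for this comparison (11830 genes) the fit called 12% of genes with a log2 change of 1, 80% with 2, 8.33% with -1 and 72% with -2, and 2 of 11632 unchanged genes. Some genes are not reported here.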

Additional observations from a re-analysis of the deposited data

Results flagged for a closer look

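Hexim1, an inhibitor of the elongation factor P-TEFb, moved in opposite directions in the comparisons with and without A-485. Its level was 38.7, 40.1 and 38.1 CPM with A-485 and 30.4, 32.4 and 29.8 CPM with A-485+IFNγ, a log2 fold change of -0.34, against 0.42 for IFNγ alone, with the libraries of each comparison separated. The difference was not called (adjusted p = 0.477, edgeR).

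Myc, a growth-promoting transcription factor, had 8.12, 6.68 and 5.81 CPM with A-485 and 3.64, 1.63 and 4.18 CPM with A-485+IFNγ, a log2 fold change of -1.12. Under A-241 it went from 0.42, 0.80 and 0 CPM to 1.31, 1.14 and 1.24 CPM, a log2 fold change of 1.51 at levels near the floor of 3 counts. The difference was not called (adjusted p = 1.0, edgeR). Many genes were screened for opposite directions, and separation of 3 libraries from 3 is common in these data.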

How the results depend on the processing

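All 96 calls kept their direction in every other setting they were tested in, 17 for most and 15 or 16 for genes that a filter removed in some, and 51 stayed past the threshold in every setting they were tested in. The 89 raised genes became 129 with DESeq2, 154 with only the compared libraries in the fit, 248 with 2 surrogate variables and 170 without DMSO replicate 3 and IFNγ replicate 2. The 7 lowered genes became 15, 30, 68 and 33 under those 4 settings and 18 at an adjusted p under 0.05, where 123 genes were raised. The 75 genes raised both with A-485 and without inhibitor became 42 with only the compared libraries, 181 with surrogate variables and 114 without the 2 libraries. Genes called for a smaller response under A-485 than without inhibitor numbered 0 in edgeR. They became 4 with DESeq2, 1 with total-count scaling, 2 at an adjusted p under 0.05, 21 with surrogate variables and 3 without the 2 libraries. These counts go by signed value and include genes that fell under A-485, Cebpb among the 21 and the 3, and Ankrd1 among the 21. Genes called for a larger response became 3 with DESeq2 and 4 with surrogate variables. Against A-241, a larger response was called for 1 gene with DESeq2 and with only the compared libraries. The same number was called at an adjusted p under 0.05, with surrogate variables and without the 2 libraries. A smaller signed response was called for 1 gene with DESeq2 and 2 with surrogate variables, and both counts include Timp3, which fell under A-485. The cause was not tested. With 1 library left out in turn, 53 to 72 genes were raised, 3 to 5 lowered and 50 to 85 raised in both comparisons. In those fits 0 to 1 genes were called for a larger response under A-485 than under A-241 (1 without A-485 replicate 1).

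With the replicate number as a block, 73 genes were raised, 5 lowered and 58 raised in both comparisons. No gene was called for a difference between responses. Same-numbered A-485 and A-485+IFNγ libraries did not deviate together (0.019, 0.012 and -0.034). This check cannot exclude that they shared a culture or day. Depth limits the genes with few counts, and 16 of the 89 raised genes had a mean under 50 counts in the higher group.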
